A study of Mus musculus with 78 samples.

Results

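The neutrophil granule genes described here are 10 genes of the protein cargo that neutrophils store: Mpo, Elane, Prtn3, Ctsg, Ltf, Camp, Ngp, S100a8, S100a9 and Retnlg. They were chosen by symbol, with earlier results of these data known, so counts of members set beside shares of all genes are descriptive. All 10 were found among 19938 genes on the arrays, each with 1 probe set. Their level was measured in liver RNA of 78 female mice, 1 array per mouse, in 18 groups. The age series had 48 mice in 12 groups of 4: littermates from a cross of Npc1+/- mice of the strain BALB/cNctr-Npc1m1N/J, either Npc1+/+ or Npc1-/-, taken at every odd week of age from 1 to 11 and weaned at 3 weeks. Npc1 encodes a lysosomal membrane protein that exports cholesterol, and Npc1-/- mice carry the loss in every cell. The other 30 mice were Balb/cJ, Npc1+/+ and 12 weeks old, in 6 groups of 5: untreated, fasted overnight, given a control antisense oligo or an Npc1 antisense oligo for the 4 weeks from week 8, or given each oligo together with NAC (N-acetyl-cysteine, an antioxidant) over the same weeks. In the oligo groups the gene itself was intact and only its RNA was targeted. Livers of the age series had been frozen on dry ice, and those of the 12-week mice frozen or kept in RNAlater, with the method of each mouse not given in the sources used here.

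Neutrophils make their granules in sequence as they mature in blood-forming tissue. Azurophil granules come first, at the promyelocyte stage, and hold myeloperoxidase (Mpo) and the serine proteases neutrophil elastase (Elane), proteinase 3 (Prtn3) and cathepsin G (Ctsg). Specific granules follow and hold lactoferrin (Ltf), the cathelicidin Camp and neutrophilic granule protein (Ngp). S100a8 and S100a9, the subunits of the cytosolic protein calprotectin, and the secreted resistin-like Retnlg are transcribed on into the mature cell. The azurophil proteases are transcribed early and their mRNA is largely gone from blood neutrophils. The liver makes blood cells before birth and for a short time after it.

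The promoters of 4 members are shown because results below turn on these genes: Ngp and S100a8 had the largest differences between genotypes at 11 weeks, and Prtn3 passed the test for NAC while its neighbour Elane did not. Each is the 250 bases before the gene's start in RefSeq on build GRCm38.p6, read on the plus strand, which is the strand of all 4 genes: Ngp at chr9:110419558-110419807, S100a8 at chr3:90668821-90669070, Prtn3 at chr10:79879417-79879666 and Elane at chr10:79886062-79886311. Capitals mark matches, on either strand, to the C/EBP motif TTNNGNAA or the PU.1 motif GAGGAA, factors of granulocyte formation.
Ngp: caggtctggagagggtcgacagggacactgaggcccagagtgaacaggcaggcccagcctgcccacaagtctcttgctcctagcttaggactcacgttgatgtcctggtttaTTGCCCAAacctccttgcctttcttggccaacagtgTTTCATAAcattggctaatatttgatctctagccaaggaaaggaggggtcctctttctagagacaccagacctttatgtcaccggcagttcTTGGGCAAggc
S100a8: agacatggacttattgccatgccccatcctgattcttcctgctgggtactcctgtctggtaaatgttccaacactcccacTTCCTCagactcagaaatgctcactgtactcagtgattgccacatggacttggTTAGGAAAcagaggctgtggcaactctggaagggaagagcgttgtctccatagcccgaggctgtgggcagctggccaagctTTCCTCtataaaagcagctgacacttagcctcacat
Prtn3: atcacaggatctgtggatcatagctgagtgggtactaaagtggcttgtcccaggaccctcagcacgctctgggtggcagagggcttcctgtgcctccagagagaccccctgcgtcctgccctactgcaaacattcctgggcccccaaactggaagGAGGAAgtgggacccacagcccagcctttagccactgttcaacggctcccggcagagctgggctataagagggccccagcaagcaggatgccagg
Elane: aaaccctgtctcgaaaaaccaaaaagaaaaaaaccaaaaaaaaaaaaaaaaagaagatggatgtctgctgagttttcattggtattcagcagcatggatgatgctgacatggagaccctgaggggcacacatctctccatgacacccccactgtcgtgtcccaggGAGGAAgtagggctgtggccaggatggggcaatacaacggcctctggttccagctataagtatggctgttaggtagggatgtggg
Promoters of all 10 members were found among 32851 in the RefSeq table. The C/EBP letters were in 5 of the 10 (Ltf, Ngp, S100a8, S100a9 and Retnlg), against 36.8% of all promoters, and in none of the 4 azurophil genes. The PU.1 letters were in 6 of the 10, all 4 azurophil genes among them with Ltf and S100a8, against 23.3% of all promoters. The MYB motif AACNG, not capitalised above, was in all 10 and in 74.2% of all promoters, and a MYB match of S100a8 overlapped its C/EBP match. These matches describe letters in a window and no binding was measured. Prtn3 and Elane are adjacent on chromosome 10, S100a8 and S100a9 are adjacent on chromosome 3, and Ltf, Camp and Ngp all lie on chromosome 9.

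Values were deposited on a log2 scale, so that a difference of 1 is a 2-fold difference, and array medians ran from 5.35 to 5.65. A gene was tested in a set where at least 4 arrays exceeded 5.54, the median of all values. Levels below that are near background and differences that end there understate the change. Npc1 itself was lower in Npc1-/- than in Npc1+/+ mice at all 6 ages (group means 8.10 to 8.78 against 9.26 to 10.27), and it was 7.25 under the Npc1 oligo against 10.22 under the control oligo. It was also lower with NAC under the control oligo, at 9.19 ± 0.46 (SD, n = 5). Hepatocyte genes had group means of 12.8 to 13.2 in every group. In 2 of the 4 Npc1+/+ mice of 3 weeks, mice 1 and 2, exocrine pancreas genes were high (mean levels of the list from 4.98 to 8.44 over the 4 mice), and in 1 Npc1-/- mouse of 1 week skeletal muscle genes were (5.32 to 8.97 over the 4). Replicates were separate mice, and the number of arrays limits the precision. Where mice of compared groups are said not to overlap, this describes the genes named. The share of all genes without overlap was not computed. In whole liver, fewer cells of a type and less RNA per cell cannot be told apart.

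Over the 18 groups the mean of the 10 granule genes was high in the first week of life. It was lowest in Npc1+/+ livers of 5 to 11 weeks and in untreated and fasted 12-week livers. Npc1-/- livers from 3 weeks on, Npc1+/+ livers of 3 weeks and the oligo groups lay in between. The mean of the 10 genes was highest in 1-week Npc1+/+ mice, at 7.72 ± 0.26 (SD, n = 4), followed by 1-week Npc1-/- mice at 7.41 ± 0.20. Ranges of those 2 groups overlapped each other, and no mouse of another group reached them. Next came Npc1-/- mice at 3 weeks (5.84 ± 0.06) and at 11 weeks (5.66 ± 0.29), Npc1+/+ mice at 3 weeks (5.60 ± 0.06), Npc1-/- mice at 7 weeks (5.54 ± 0.23), and 12-week mice given the control oligo with NAC (5.48 ± 0.16, n = 5). Lower in the order stood Npc1-/- mice at 9 weeks (5.46) and 5 weeks (5.27), the Npc1 oligo with NAC (5.25), the Npc1 oligo alone (5.20) and the control oligo alone (5.16). From the 3-week Npc1-/- mice down to the control oligo, each group's range overlapped that of the next, and the 5 control-oligo mice all lay above the highest mouse of the group that followed, 5-week Npc1+/+ mice. The lowest 6 groups, with means from 5.02 down to 4.86, were Npc1+/+ mice of 5, 9, 7 and 11 weeks, untreated mice and fasted mice, and their ranges overlapped from each to the next.

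**Figure D1:**
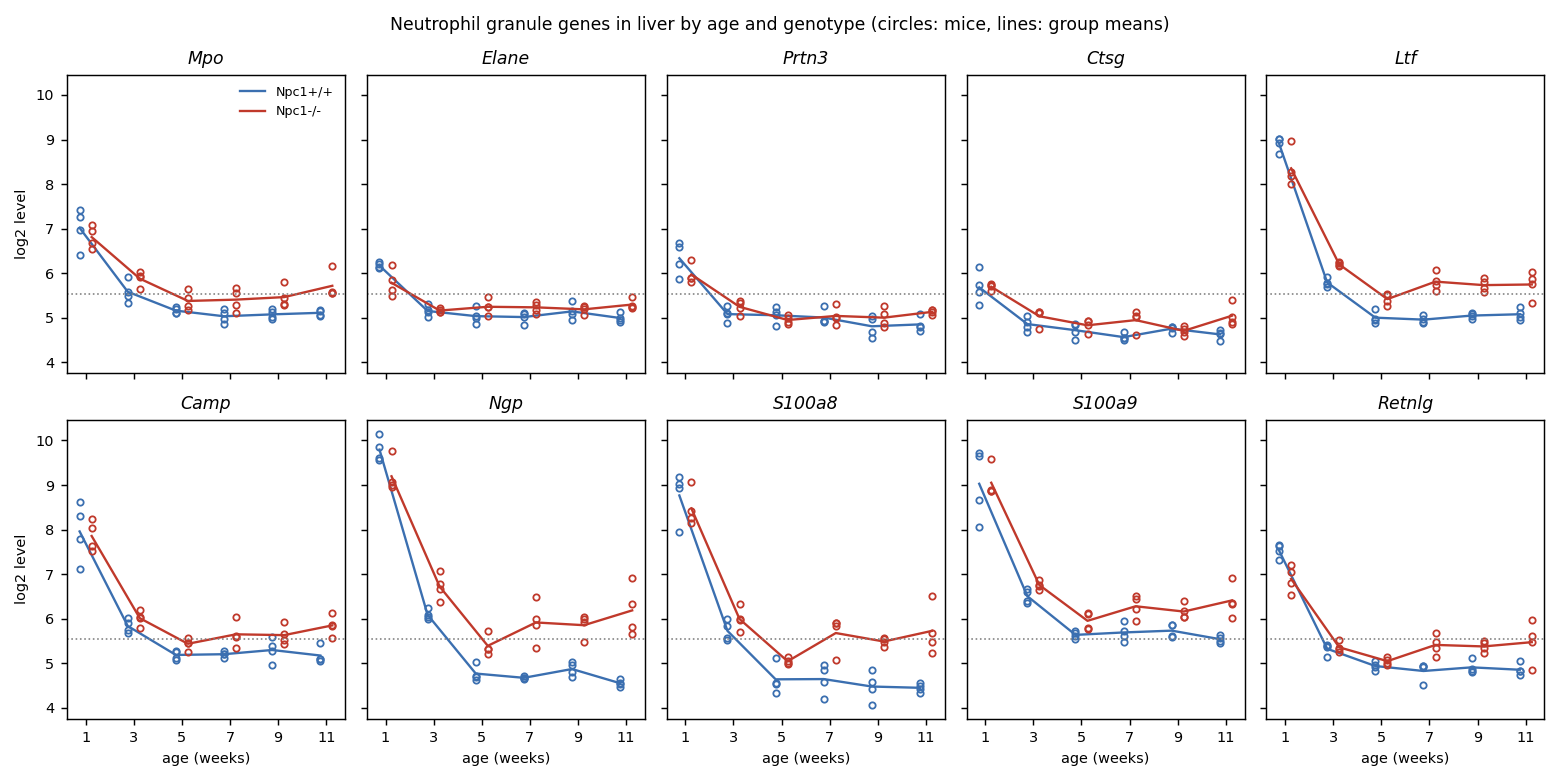
Log2 level of each of the 10 granule genes (vertical axis) by age in weeks (horizontal axis) in the age series, with 1 point per mouse, blue for Npc1+/+ and red for Npc1-/-, lines through the group means, and a dotted line at 5.54, the level used in the filter. All panels are highest at 1 week, and from 3 weeks the red points of Ngp lie above all blue points of the same age, while Elane, Prtn3 and Ctsg stay under the dotted line after 1 week.

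All 4 azurophil granule genes fell from 1 to 3 weeks in Npc1+/+ mice, with a median change of -1.14. Mpo, which makes hypochlorous acid, measured 6.42, 7.27, 6.96 and 7.43 in the Npc1+/+ mice of 1 week and 5.92, 5.34, 5.50 and 5.58 at 3 weeks. The ages did not overlap, and Mpo fell by 1.43 ± 0.16 (SE) on the log2 scale, or 2.7-fold (limma, adjusted p = 3.96e-10). Elane fell by 1.02 (adjusted p = 1e-10), from 6.13, 6.11, 6.20 and 6.24 to 5.13, 5.17, 5.31 and 5.01. Prtn3 went from 6.20, 6.69, 5.88 and 6.58 to 5.26, 4.88, 5.08 and 5.11, and fell by 1.25 ± 0.14 (adjusted p = 3.38e-10). Ctsg fell least of the 10, by 0.82 ± 0.12 (adjusted p = 4.98e-07), from 5.29, 5.74, 5.57 and 6.13. After 1 week no mouse of the age series had Elane, Prtn3 or Ctsg above 5.54, so these 3 genes entered the tests through the 1-week arrays alone, as did Retnlg, which exceeded that level on 3 later arrays where 4 were needed.

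The 3 specific granule genes fell by more, with a median of -3.12. Ngp, a cystatin-like granule protein, measured 9.86, 9.61, 9.55 and 10.15 in Npc1+/+ mice of 1 week and 6.08, 6.04, 6.24 and 6.00 at 3 weeks, and fell by 3.71 ± 0.20, or 13.1-fold (limma, adjusted p = 1.17e-19). It was the largest fall among the 10. Ltf, which binds iron, dropped by 3.12 ± 0.13 or 8.66-fold (adjusted p = 1.95e-23), from 8.92, 9.01, 8.69 and 9.02 to 5.77, 5.79, 5.92 and 5.69. Camp, the precursor of the antimicrobial peptide CRAMP, was more variable between the 1-week mice (8.62, 8.31, 7.12 and 7.78) and fell by 2.12 ± 0.18 (adjusted p = 8.39e-13) to 5.69, 5.90, 6.02 and 5.75. In none of these 3 genes did the ages overlap.

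The 3 late genes fell as well, with a median of -2.52. S100a8 measured 9.17, 9.02, 7.94 and 8.93 at 1 week and 5.56, 5.53, 5.99 and 5.83 at 3 weeks in Npc1+/+ mice, and fell by 3.04 ± 0.23 or 8.21-fold (limma, adjusted p = 8.38e-15). Its partner S100a9 fell by 2.52 ± 0.21 (adjusted p = 1.34e-13), from 9.73, 9.66, 8.07 and 8.66 to 6.35, 6.60, 6.67 and 6.41. Retnlg fell by 2.20 ± 0.14 (adjusted p = 7.39e-17), from 7.51, 7.63, 7.32 and 7.66 to 5.40, 5.37, 5.14 and 5.39. None of the 3 overlapped between the ages. S100a9 was still above 5.54 on 37 of the arrays from 3 weeks on, S100a8 on 13 and Retnlg on 3.

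All 10 members fell from 1 to 3 weeks in Npc1+/+ mice, where 21.5% of the 12638 genes tested fell, with a median change of -2.16 over the 10 and -0.03 over all genes tested. All 10 also fell in Npc1-/- mice, where 14.8% of genes fell, with a median of -1.69. Elane, Prtn3, Ctsg and Retnlg passed the filter only through the 1-week arrays, where they were high, so these counts of 10 are not read against those shares. Without the filter, which lets in every gene whatever its level, all 10 fell in each genotype in limma, against 15% of 19938 genes in Npc1+/+ and 10.6% in Npc1-/- mice. In Npc1-/- mice the changes ran from -0.62 for Elane (adjusted p = 8.36e-06) and -0.66 for Ctsg to -2.47 for Ngp (adjusted p = 1.09e-13) and -2.48 for S100a8 (adjusted p = 6.55e-12). The fall was smaller in Npc1-/- mice in 2 of the 10, where 1.53% of genes differed that way: by 0.96 ± 0.18 for Ltf (adjusted p = 0.00109) and by 1.23 ± 0.28 for Ngp (adjusted p = 0.0081). The other 8 also had estimates above 0, from 0.16 for Ctsg to 0.67 for Retnlg, and did not pass with all mice. Of these 8, Retnlg passed under quantile normalization (adjusted p = 0.045), with only the compared groups fitted (0.0443) and without Npc1-/- mouse 2 of 1 week (0.0344), Elane without Npc1-/- mouse 4 of 1 week (0.0336), and Prtn3 without Npc1+/+ mouse 3 of 1 week (0.041). S100a9 passed without Npc1+/+ mice 3 and 4 of 1 week (0.89, adjusted p = 0.038). Both ends contributed, since 1-week Npc1-/- mice had less Ltf (8.27, 8.97, 8.18 and 8.00) and 3-week Npc1-/- mice had more (6.22, 6.24, 6.18 and 6.16) than their Npc1+/+ littermates. Leaving out Npc1+/+ mice 3 and 4 of 1 week, which their sample names number apart, or mice 1 and 2 of 3 weeks kept the count at 10.

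Other neutrophil genes fell over the same interval. Of 18 further granule genes, 13 were tested and 10 fell in Npc1+/+ mice, with a median of -0.67, among them Olfm4 (-2.48), Mmp8 (-1.92), Pglyrp1 (-1.37) and Mmp9 (-1.29), proteins of specific and gelatinase granules. Of 12 genes of mature neutrophils on the array 6 were tested and 5 fell, with a median of -0.85, led by the cystatin Stfa3 (-4.68) and the surface antigen Ly6g (-2.82). Of 9 factors and receptors of granulocyte formation 6 fell, with a median of -0.49, among them Myb (-0.88), Spi1 (-0.61), Csf3r (-0.60) and Runx1 (-0.59). Of 8 chemoattractant and adhesion genes tested 5 fell, including the platelet chemokine Ppbp (-2.75) and the marrow-retention receptor Cxcr4 (-1.54). In Npc1-/- mice the corresponding counts were 8 of 13 granule genes (median -0.48), 5 of 6 mature-neutrophil genes (median -0.79), 3 of 9 factors with 1 higher (median -0.04), and 2 of 8 recruitment genes (median -0.09).

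Markers of other blood lineages, of dividing cells and of fetal liver fell with them. In Npc1+/+ mice 9 of 11 erythroid genes fell and 1 rose from 1 to 3 weeks (median -1.01), with Rhag at -2.80 and Slc4a1 at -2.49. All 6 megakaryocyte genes tested fell (median -0.69), as did 3 of 3 B-cell progenitor genes tested (median -1.03), 10 of 10 cell division genes (median -1.66) and 4 of 4 fetal liver genes (median -4.83, with Afp at -6.40). Of 8 monocyte and macrophage genes 7 fell in Npc1+/+ mice (median -0.61), while in Npc1-/- mice 2 fell and 2 rose (median -0.15). The mean level of the erythroid list was 6.82 to 7.31 over the 1-week and 5.76 to 6.05 over the 3-week Npc1+/+ mice, and that of the mature-neutrophil list was 5.19 to 5.40 and 4.19 to 4.23. Eosinophil, basophil and mast cell markers had group means from 4.09 to 4.39 in all 18 groups, with at most 1 of 9 genes above 5.54. The part of these lists in the fall of the granule genes was not tested.

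**Figure D2:**
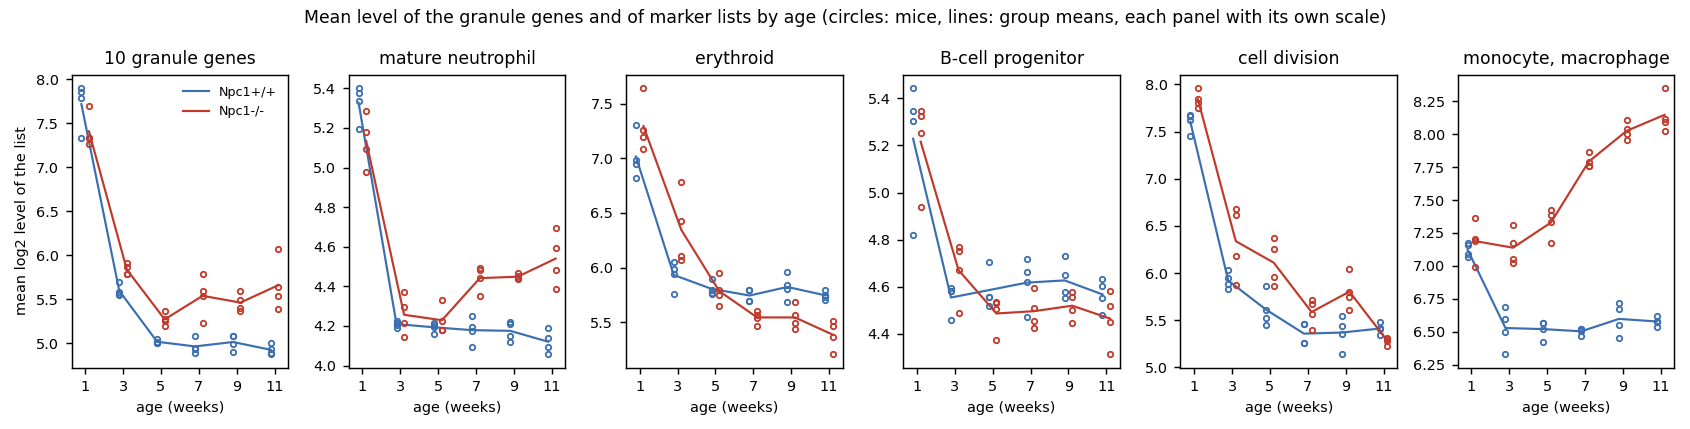
Mean log2 level of 6 gene lists (vertical axis: the 10 granule genes, mature neutrophil, erythroid, B-cell progenitor, cell division, and monocyte and macrophage genes) by age in weeks (horizontal axis), with 1 point per mouse, blue for Npc1+/+ and red for Npc1-/-, and lines through the group means. The granule, mature neutrophil, erythroid, B-cell progenitor and cell division lists are highest at 1 week in both genotypes, whereas the monocyte and macrophage list ends at 8.03 to 8.35 in Npc1-/- and 6.54 to 6.62 in Npc1+/+ mice of 11 weeks.

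In Npc1+/+ mice the levels of 5 members went on falling after weaning, and none passed a test after 5 weeks. Contrasts between ages that start or end at 5 weeks were added after the values had been seen. From 3 to 5 weeks 5 of the 10 fell, against 3.73% of genes: Ngp by 1.32 ± 0.20 (limma, adjusted p = 8.08e-06), S100a8 by 1.09 (adjusted p = 0.00123), S100a9 by 0.87 (adjusted p = 0.00481), Ltf by 0.79 (adjusted p = 3.92e-05) and Camp by 0.65 (adjusted p = 0.0225). Camp no longer passed without 3-week mouse 2 or 3 or 5-week mouse 3 or 4 (adjusted p from 0.0601 to 0.0825). Ngp then measured 4.70, 4.73, 5.03 and 4.64 at 5 weeks and 4.48, 4.53, 4.55 and 4.66 at 11 weeks. From 5 to 11 weeks none of the 10 passed in Npc1+/+ mice in limma, and none had an unadjusted p under 0.05, where 0.19% of genes changed in either direction. Estimates lay between -0.22 for Ngp (95% interval -0.61 to 0.18) and 0.08 for Ltf (-0.18 to 0.34).

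Npc1-/- mice also had lower levels at 5 than at 3 weeks, and 3 members then rose. From 3 to 5 weeks 5 of the 10 fell in them, against 1.9% of genes: Ngp by 1.33 ± 0.20 (limma, adjusted p = 5.85e-06), Ltf by 0.78 (adjusted p = 4.27e-05), S100a8 by 0.95 (adjusted p = 0.00626), S100a9 by 0.80 (adjusted p = 0.0117) and Mpo by 0.50 (adjusted p = 0.0476). The Mpo call was lost without Npc1-/- mouse 1, 2 or 4 of 3 weeks or mouse 1, 3 or 4 of 5 weeks, with adjusted p up to 0.165, without the filter (0.066), and under quantile normalization (0.0586) or median centring (0.0514). From 5 to 11 weeks 3 of the 10 rose in Npc1-/- mice, against 12.9% of genes. The median change was 0.38 over the 10 and 0.00 over all genes tested, and 7 of the 10 had an unadjusted p under 0.05. The share of all genes at that unadjusted level was not computed, so the count of 7 is descriptive only. This contrast was added after the values had been seen, and 5 weeks had the lowest mean of the 10 genes among Npc1-/- ages (5.27). In the contrast from 3 to 11 weeks the median over the 10 was -0.16 in Npc1-/- mice, and no member passed as higher. The share of all genes that were higher there is not given here.

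Of the 3, Ngp rose most. It measured 5.32, 5.73, 5.21 and 5.31 in Npc1-/- mice of 5 weeks, 6.48, 5.85, 5.34 and 5.99 at 7 weeks, 5.47, 5.99, 6.03 and 5.93 at 9 weeks, and 5.67, 5.83, 6.33 and 6.92 at 11 weeks. The 5-week and 11-week ranges overlapped by 1 mouse at 5.73. The rise from 5 to 11 weeks was 0.80 ± 0.20 or 1.74-fold (limma, adjusted p = 0.00163), and without Npc1-/- mouse 4 of 11 weeks, the highest, it was 0.55 (adjusted p = 0.0293). S100a8 rose by 0.68 ± 0.23 (adjusted p = 0.0214), from 5.06, 4.99, 5.00 and 5.13 to 5.24, 5.48, 5.68 and 6.52, with no overlap. Retnlg rose by 0.43 ± 0.14 (adjusted p = 0.0209), from 4.96, 5.02, 5.07 and 5.15 to 4.85, 5.61, 5.47 and 5.97. Neither of these 2 passed without that mouse, at an adjusted p of 0.193 for each, and the Retnlg call was also lost without 5-week mouse 1 (0.0549) or 11-week mouse 2 (0.0676) or when only the compared groups were fitted (0.136). The count of 3 became 1 without mouse 4 and 5 without mouse 1 of 11 weeks.

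The change from 5 to 11 weeks differed between genotypes for Ngp, by 1.01 ± 0.28 (limma, adjusted p = 0.00773), and for none of the other 9, where 6.72% of genes differed in that direction. S100a8 (0.87, adjusted p = 0.0563) and Retnlg (0.51, adjusted p = 0.0771) had estimates in the same direction. Leaving out Npc1-/- mouse 1 or 2 of 11 weeks, or Npc1+/+ mouse 2 of 5 weeks, raised the count from 1 to 3, 2 and 2. This contrast was also added after the values had been seen, and it uses the same 11-week mice as the comparison of genotypes at that age.

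Between 3 and 11 weeks 7 of the 10 fell in Npc1+/+ and 2 in Npc1-/- mice. In Npc1+/+ mice 7 of the 10 were lower at 11 than at 3 weeks, against 3.74% of genes, with a median of -0.57: Ngp fell by 1.53 (limma, adjusted p = 1.79e-07), S100a8 by 1.28 (adjusted p = 9.33e-05), S100a9 by 0.96 (adjusted p = 0.00108), Ltf by 0.71 (adjusted p = 0.000119), Camp by 0.66 (adjusted p = 0.0138), Mpo by 0.47 (adjusted p = 0.0427) and Retnlg by 0.47 (adjusted p = 0.024). Mpo lost its call without mouse 1, 3 or 4 of 3 weeks or any mouse of 11 weeks (adjusted p up to 0.178) and under quantile normalization (0.0539) or median centring (0.0543), Retnlg without mouse 1, 2 or 4 of 3 weeks or mouse 2 or 4 of 11 weeks (up to 0.0649), and Camp without mouse 3 of 3 weeks or mouse 2 of 11 weeks (up to 0.0534). The count was 4 without mouse 2 of 11 weeks, and 4 without mice 1 and 2 of 3 weeks, those with pancreas genes. In Npc1-/- mice 2 of the 10 were lower, against 12.2% of genes: Ltf fell by 0.45 (adjusted p = 0.00616) and Ngp by 0.53 (adjusted p = 0.035). The other 8 did not pass, with estimates from -0.34 for S100a9 to 0.13 for Elane. No call was left without mouse 1 of 11 weeks, and 1 was left without mouse 2 of 11 weeks or mouse 1, 2 or 3 of 3 weeks. The difference of these changes passed for 3 of the 10, against 9.27% of genes: Ngp by 1.00 ± 0.28 (adjusted p = 0.00771), S100a8 by 1.01 ± 0.32 (adjusted p = 0.0217) and Retnlg by 0.59 ± 0.20 (adjusted p = 0.0343), and for 1 of them without Npc1-/- mouse 4 of 3 or of 11 weeks. S100a8 also lost its call without Npc1+/+ mouse 3 of 3 weeks (0.0521), and Retnlg without any of 12 of the 16 mice, all but Npc1-/- mouse 1 and Npc1+/+ mouse 3 of 3 weeks and mouse 1 of each genotype at 11 weeks (up to 0.132), and under median centring (0.0542). The changes from 1 to 3, 3 to 5 and 3 to 11 weeks share the 3-week mice.

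Between littermates of the same age, 3 of the 10 granule genes were lower in Npc1-/- livers at 1 week, and 2 to 9 were higher at each age from 3 weeks on. At 1 week 3 of the 10 were lower, against 2.78% of genes, with a median of -0.33: Retnlg by -0.63 ± 0.14 (limma, adjusted p = 0.00325), Ltf by -0.55 ± 0.13 (adjusted p = 0.005) and Elane by -0.38 ± 0.11 (adjusted p = 0.0187). Elane and Retnlg passed the filter only through the 1-week arrays compared here, so the count is not read against that share. Retnlg measured 6.80, 7.20, 6.53 and 7.05 in Npc1-/- mice, all below the Npc1+/+ mice. Elane measured 5.49, 5.62, 5.85 and 6.18 and overlapped them, and its call was lost without Npc1-/- mouse 1 or 2 or Npc1+/+ mouse 3 or 4, at adjusted p from 0.0614 to 0.137. When only the 1-week groups were fitted, Retnlg alone passed (Ltf 0.092, Elane 0.12). S100a9 differed by 0.02 with all mice and by -0.64 without Npc1+/+ mice 3 and 4, whose levels of 8.07 and 8.66 lay below the 9.73 and 9.66 of mice 1 and 2. At 1 week 3 of 13 other granule genes were also lower (Mmp8 -0.77, Olfm4 -0.71 and Mmp9 -0.60), 1 of 6 mature-neutrophil genes was lower (Stfa3 -0.82), and 3 of 11 erythroid genes were higher.

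At 3 and 5 weeks the same pair of specific granule genes was higher in Npc1-/- mice. At 3 weeks Ltf differed by 0.41 ± 0.13 (limma, adjusted p = 0.0246) and Ngp by 0.63 ± 0.20 (adjusted p = 0.0209), with Ngp at 7.07, 6.79, 6.67 and 6.37 in Npc1-/- mice, above all 4 Npc1+/+ mice. That was 2 of the 10, against 8.9% of genes. No call was left without Npc1+/+ mouse 2, mouse 4, or mice 1 and 2 together, and 1 was left without Npc1+/+ mouse 1 or Npc1-/- mouse 1 or 2. At 5 weeks Ltf (0.42, adjusted p = 0.0236) and Ngp (0.62, adjusted p = 0.0268) passed, against 9.69% of genes. Ltf measured 5.51, 5.53, 5.27 and 5.37 in Npc1-/- and 4.97, 4.89, 4.95 and 5.20 in Npc1+/+ mice, without overlap. All of these Ltf levels lay under 5.54, near background. No call was left there without Npc1-/- mouse 2 or Npc1+/+ mouse 1 or 2, and 1 was left without Npc1-/- mouse 1 or Npc1+/+ mouse 3 or 4.

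At 7 weeks 6 of the 10 were higher, against 14.3% of genes, with a median of 0.52: Ngp by 1.24 (limma, adjusted p = 2.5e-06), S100a8 by 1.03 (adjusted p = 0.000438), Ltf by 0.85 (adjusted p = 1.1e-06), S100a9 by 0.59 (adjusted p = 0.03), Retnlg by 0.58 (adjusted p = 0.00131) and Ctsg by 0.38 (adjusted p = 0.0165). Ctsg lost its call without Npc1-/- mouse 1 or 2 (adjusted p = 0.0528 and 0.0718), and S100a9 without Npc1-/- mouse 1 or 2 or Npc1+/+ mouse 2, 3 or 4 (0.0511 to 0.0998), and under quantile normalization (0.0508) or median centring (0.0524). S100a8 measured 5.90, 5.83, 5.09 and 5.90 in Npc1-/- and 4.84, 4.97, 4.20 and 4.58 in Npc1+/+ mice, without overlap. At 9 weeks 4 of the 10 were higher, against 17.6% of genes, with a median of 0.41: Ngp by 0.98 (adjusted p = 9.75e-05), S100a8 by 1.01 (adjusted p = 0.00048), Ltf by 0.68 (adjusted p = 4.31e-05) and Retnlg by 0.47 (adjusted p = 0.00832). Ngp and Ltf were thus the members higher at each of the 5 ages from 3 to 11 weeks.

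By 11 weeks 9 of the 10 were higher in Npc1-/- livers, against 18.8% of genes, with a median of 0.64 over the 10 and -0.02 over all genes tested. Ngp, at 5.67, 5.83, 6.33 and 6.92 in Npc1-/- mice, lay above all 4 Npc1+/+ mice by 1.63 ± 0.20 or 3.10-fold (limma, adjusted p = 2.86e-09). S100a8, at 5.24, 5.48, 5.68 and 6.52 against 4.42, 4.56, 4.34 and 4.49, differed by 1.28 ± 0.23 (adjusted p = 1.03e-05). S100a9 differed by 0.87 (adjusted p = 0.000608), from 6.02, 6.36, 6.34 and 6.92 against 5.57, 5.46, 5.64 and 5.50. These genes did not overlap between genotypes.

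Ltf measured 5.34, 5.77, 5.86 and 6.02 in Npc1-/- mice of 11 weeks against 5.03, 4.95, 5.25 and 5.10, a difference of 0.67 (limma, adjusted p = 3.79e-05). Camp differed by 0.68 (adjusted p = 0.00264), at 5.85, 5.57, 5.86 and 6.13 against 5.10, 5.05, 5.46 and 5.10, and Retnlg by 0.62 (adjusted p = 0.00039). Mpo, at 5.55, 5.58, 5.57 and 6.17 against 5.18, 5.05, 5.15 and 5.07, differed by 0.61 ± 0.16 (adjusted p = 0.00149). Among the proteases Ctsg (0.42, adjusted p = 0.00504) and Elane (0.30, adjusted p = 0.0186) passed at levels under 5.54, and Prtn3 did not (0.28, adjusted p = 0.0966). Without Npc1-/- mouse 4, the highest of its group in all 10 genes, the adjusted p was 0.052 for Ctsg and 0.0842 for Elane, and Elane was also lost without Npc1+/+ mouse 2 (0.0602) and under median centring (0.0618). Without that mouse Ngp differed by 1.39 (adjusted p = 6.89e-08) and S100a8 by 1.01 (adjusted p = 0.000277).

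Around the granule genes, other myeloid genes were higher in Npc1-/- livers at 11 weeks. Of 13 further granule genes tested 6 were higher and 1 lower (median 0.29). The protease Adam8 (3.08), the annexin Anxa3 (2.79) and lipocalin Lcn2 (2.48), which hepatocytes also make, were higher. Ctsc, the peptidase that activates the azurophil proteases, was lower (-1.51). Adam8 and Anxa3 were also higher under the Npc1 oligo without NAC, where no member tested passed. Of 6 mature-neutrophil genes tested 3 were higher (median 0.37): the lectin receptor Clec4d (2.48), the G-CSF receptor Csf3r (0.76) and Ly6g (0.57). Of 9 factors of granulocyte formation 5 were higher and 1 lower (median 0.32), with Spi1, which encodes PU.1, at 1.95, Csf2rb at 1.64, Runx1 at 0.85 and Cebpa at -0.84. Recruitment genes went both ways, 3 higher and 2 lower of 8 (median -0.04), with Cxcr4 at 2.91 and Cxcl12 at -0.77. Whole-liver RNA does not show which cells the genes of these lists came from, and macrophage genes were higher too.

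Inhibitors of the neutrophil proteases also went both ways: 1 of 6 was higher, Slpi (0.83), and 3 were lower, Serpina1c (-1.99), Serpinb1a (-1.13) and Serpina1d (-0.66). Monocyte and macrophage genes were higher in 8 of 8 tested (median 1.46), with Cd68 at 3.99 and Lyz2 at 3.62, and lipid-laden macrophage genes in 6 of 6 (median 4.42), with Gpnmb at 7.12. The mean of the monocyte and macrophage list was 8.03 to 8.35 over the Npc1-/- mice and 6.54 to 6.62 over the Npc1+/+ mice, and that of the mature-neutrophil list was 4.39 to 4.69 and 4.06 to 4.19. Of 11 erythroid genes 0 were higher and 3 lower (median -0.01), and of 10 cell division genes 0 were higher and 2 lower (median -0.03). The part of these lists in the difference of the granule genes was not tested.

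In the 12-week mice Prtn3, S100a8, S100a9 and Retnlg were above 5.54 on enough arrays to be tested, and the other 6 were not. Prtn3 and S100a8 were so through the mice given the control oligo with NAC, which were 4 of the 5 arrays with Prtn3 above 5.54 and 4 of the 6 with S100a8 above it. Retnlg and S100a9 would have passed without that group. Counts over these 4 are therefore not counts over the 10, and where that group is compared they are not read against the share of all genes tested. Fasting changed none of the 4 in limma, with none at an unadjusted p under 0.05, against 0.529% of genes in either direction. With the control oligo 2 of the 4 were higher than in untreated mice, against 5.05% of genes: Retnlg by 0.71 ± 0.19 (adjusted p = 0.00564) and S100a8 by 0.71 ± 0.26 (adjusted p = 0.0367). Retnlg measured 5.52, 5.52, 5.58, 5.42 and 5.53 with the control oligo and 5.02, 4.79, 4.64, 4.72 and 4.82 untreated, without overlap. The S100a8 call was lost without any of 8 of the 10 mice (untreated mice 2 to 5 and control-oligo mice 1, 2, 3 and 5), at adjusted p from 0.0564 to 0.0841, and under quantile normalization (0.0508).

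**Figure D3:**
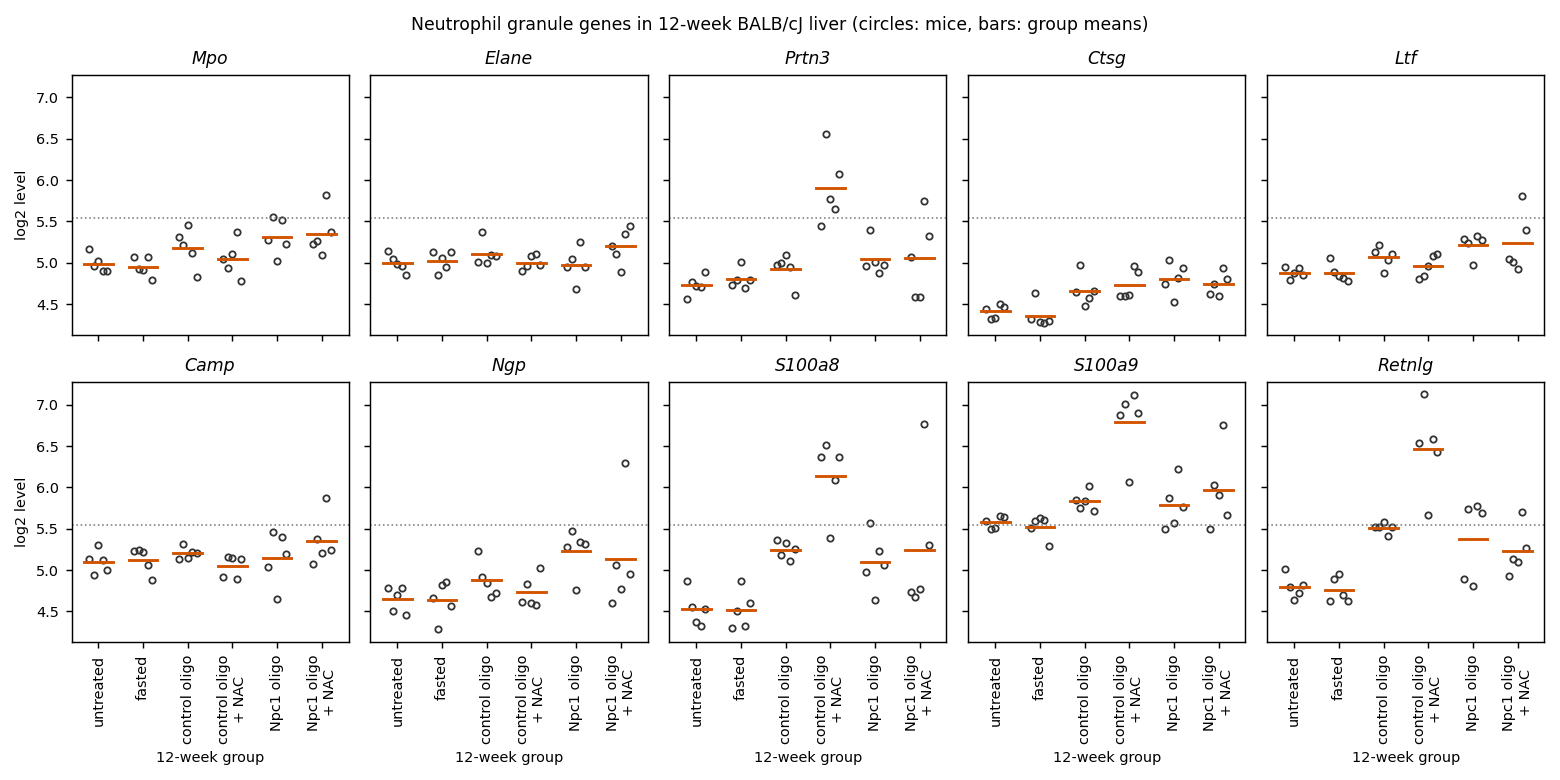
Log2 level of each of the 10 granule genes (vertical axis) in the 6 groups of 12-week mice (horizontal axis), with circles for mice, bars for group means, and a dotted line at 5.54, the level used in the filter. Prtn3, S100a8, S100a9 and Retnlg are highest in the mice given the control oligo with NAC, whereas the mean of Ngp there is 4.73 against 4.88 with the control oligo alone.

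With NAC added to the control oligo all 4 genes tested rose. As Prtn3 and S100a8 were tested through this group, the count is not read against the 6.09% of genes that rose. Without the filter the same 4 of the 10 rose in limma, against 2.85% of 19938 genes. Retnlg measured 6.53, 7.13, 5.67, 6.58 and 6.43, above all 5 control-oligo mice, a difference of 0.96 ± 0.19 or 1.94-fold (limma, adjusted p = 0.00162). S100a9 rose by 0.96 ± 0.17 (adjusted p = 0.000611), from 5.85, 5.75, 5.83, 6.02 and 5.72 to 6.87, 7.01, 6.06, 7.12 and 6.89, without overlap. S100a8 rose by 0.90 ± 0.26 (adjusted p = 0.0265), from 5.36, 5.18, 5.33, 5.11 and 5.25 to 6.37, 6.51, 5.38, 6.09 and 6.37, also without overlap. The S100a8 call was lost without control-oligo mouse 2 or 4 or NAC mouse 1, 2 or 5, at adjusted p from 0.0556 to 0.0779. NAC mouse 3 was the lowest of its group in each of these 3 genes.

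The azurophil protease Prtn3 rose with them by 0.97 ± 0.17 or 1.96-fold (limma, adjusted p = 0.000559), from 4.98, 5.00, 5.10, 4.95 and 4.61 to 5.45, 6.55, 5.77, 5.65 and 6.08, without overlap. Its neighbour and fellow azurophil gene Elane was 4.89, 4.96, 5.09, 5.10 and 4.97 with NAC and 5.01, 5.37, 5.00, 5.10 and 5.08 without. Elane, Mpo, Ctsg, Ltf, Camp and Ngp did not pass when all 10 were tested without the filter, and the median over the 10 was then -0.02. The mean of the 3 late genes was 6.47 ± 0.45 with NAC and 5.53 ± 0.05 without, and that of the 3 specific granule genes was 4.91 ± 0.11 and 5.05 ± 0.10.

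Among other lists, 8 of 10 hepatocyte acute-phase genes rose with NAC under the control oligo (median 0.66), with Saa1 at 3.84, Lcn2 at 3.02, Saa2 at 2.99 and Orm2 at 2.66. Control-oligo mice without NAC already had higher Saa2 (2.73), Saa1 (2.52) and Lcn2 (1.90), and lower Hamp (-0.89), than untreated mice. Lcn2, which both neutrophils and hepatocytes make, was the 1 of 8 further granule genes that rose with NAC. None of 5 factors of granulocyte formation, 8 recruitment genes and 7 monocyte and macrophage genes tested passed in limma, nor did the 1 mature-neutrophil gene tested. The mean of the acute-phase list was 12.25 to 12.64 with NAC and 10.50 to 11.68 without, and that of the mature-neutrophil list was 4.23 to 4.57 and 4.24 to 4.35. Npc1 was lower in the same comparison (-1.03, adjusted p = 6.05e-05). The part of these in the result for the 4 genes was not tested.

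Between the Npc1 oligo and the control oligo without NAC none of the 4 passed in limma and none had an unadjusted p under 0.05, against 22.6% of genes in either direction, and the 95% intervals were -0.24 to 0.47 for Prtn3, -0.67 to 0.37 for S100a8, -0.40 to 0.30 for S100a9 and -0.52 to 0.25 for Retnlg. Monocyte and macrophage genes were higher in 5 of 7 (median 0.67) and lipid-laden macrophage genes in 6 of 6 (median 2.22) in that comparison. The further granule genes Adam8 (1.07) and Anxa3 (0.86) were also higher there. Among factors of granulocyte formation Csf2rb (0.76) and Spi1 (0.49) were higher and Cebpa (-0.47) was lower. With NAC added to the Npc1 oligo none of the 4 passed either in limma, with none at an unadjusted p under 0.05, against 7.15% of genes. S100a8 measured 4.73, 4.68, 4.77, 6.76 and 5.30 there, with mouse 4 above every other mouse of the 12-week set.

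With NAC in both groups the Npc1 oligo mice were lower than the control oligo mice in all 4 genes tested. The count is not read against the 14.7% of genes that were lower. Retnlg differed by -1.24 ± 0.19 (limma, adjusted p = 8.74e-06) and S100a8 by -0.90 ± 0.26 (adjusted p = 0.009). Prtn3 differed by -0.84 ± 0.17 (adjusted p = 0.000448) and S100a9 by -0.82 ± 0.17 (adjusted p = 0.000501). Without the filter these 4 of the 10 were lower in limma, against 8.32% of genes, and the other 6 had estimates above 0: 0.41 for Ngp, 0.31 for Mpo, 0.31 for Camp, 0.28 for Ltf, 0.20 for Elane and 0.01 for Ctsg. None of those 6 passed (adjusted p from 0.0921 for Mpo), though 5 had an unadjusted p under 0.05, and the median was 0.10 over the 10 and -0.87 over the 4. This comparison shares the mice given the control oligo with NAC with the comparison above. The difference in the effect of NAC between oligos passed for 2 of the 4, a count not read against the 3.68% of genes that were lower. Without the filter the same 2 of the 10 passed, against 1.53% of genes. With the filter the estimates were -1.11 ± 0.27 for Retnlg (limma, adjusted p = 0.0144) and -0.95 ± 0.24 for Prtn3 (adjusted p = 0.0199). S100a9 (-0.77, adjusted p = 0.0588) and S100a8 (-0.75, adjusted p = 0.233) did not pass. Without mouse 4 of the Npc1 oligo with NAC all 4 passed, with adjusted p of 0.00491 for Retnlg, 0.00274 for Prtn3, 0.00446 for S100a9 and 0.00567 for S100a8. Without mouse 3 of the control oligo with NAC S100a9 passed too (0.00481). When only the 4 compared groups were fitted, neither Retnlg (0.0589) nor Prtn3 (0.0746) passed, and when only its own groups were fitted S100a8 missed the threshold in the comparison of oligos with NAC (0.0932).

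The effect of the Npc1-/- genotype and that of 4 weeks of the Npc1 oligo differed in 7 of the 10. The genotype difference at 11 weeks exceeded the oligo difference without NAC in those 7, against 11.7% of genes, with a median of 0.62: S100a8 by 1.43 ± 0.35 (limma, adjusted p = 0.00118), Ngp by 1.28 ± 0.28 (adjusted p = 0.000296), S100a9 by 0.92 (adjusted p = 0.00867), Retnlg by 0.75 (adjusted p = 0.0134), Camp by 0.73 (adjusted p = 0.012), Ltf by 0.52 (adjusted p = 0.0184) and Elane by 0.44 (adjusted p = 0.0156). Ltf and Retnlg lost their calls without Npc1-/- mouse 4 of 11 weeks (adjusted p = 0.0654 and 0.0643), and Elane and Ltf under median centring (0.0504 and 0.0533), Ltf also under quantile normalization (0.0535). Ngp, Camp, Ltf and Elane did not pass the filter in the 12-week set, with 1, 1, 1 and 0 arrays above 5.54. Elane entered this fit through 1-week arrays alone, which the contrast does not use. The oligo differences of these genes lay near background and may be understated. Age, duration, source of the mice and tissue handling also differ between those sets and cannot be told apart from the kind of loss.

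Across the 18 group means the members followed each other closely, with Pearson's r from 0.78 for Elane and Prtn3 to 0.99. Within groups, after each group mean was removed, the pairs differed more over the 78 arrays: r was 0.72 for Ltf and Ngp, 0.71 for Camp and S100a9, 0.69 for S100a8 and S100a9, and 0.06 for Elane and S100a9. All pairs share the 1-week groups at the top of the range and the same arrays. The genes, not members, most like the mean of the 10 over the 18 group means were Ly6g (r = 0.986), Thbs1 (0.985), Slc2a3 (0.980), Asns (0.977) and Rgs18 (0.973). Ly6g, the surface antigen by which mouse neutrophils are sorted, had group means of 7.69, 4.86 and 4.17 in Npc1+/+ mice of 1, 3 and 5 weeks and 4.77 in Npc1-/- mice of 11 weeks. Asns, which makes asparagine, had 8.25, 5.44, 4.82 and 4.87 in the same groups.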

How the data were processed

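Liver RNA of 78 mice, in 18 groups of 4 or 5, was measured on Affymetrix arrays. The authors deposited 1 table of log2 values for 35556 probe sets, and the submitters' processing notes name RMA, which corrects background, normalizes across arrays and summarises probes, and Partek 6.5, without saying which step each did. RMA compresses differences of weakly expressed genes. Genes were named through the platform's annotation: 21789 probe sets had 1 symbol, 1621 several and 12146 were not listed, and probe sets with several were left out. Where several probe sets named a gene, that with the largest average of all 78 arrays was used.

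In R 4.3.3, limma 3.58.1 fitted 1 mean per group (lmFit, eBayes), separately for the 48 age-series arrays (12638 genes), the 30 arrays of 12-week mice (11900 genes) and, for the comparison across them, all 78 arrays (12748 genes). Genes needed a value above 5.54 on at least 4 arrays, and p-values were adjusted by Benjamini-Hochberg over all genes tested, with a threshold of 0.05. The steps were tested on simulated data: of genes changed by 0.5 on the log2 scale 77% were recovered in the 1-to-3-week setting and 92% in the NAC setting, and of those changed by 1, 99% in both. No 2 arrays held identical values (highest correlation 0.994). The replicate number was checked as a pairing of mice: in none of 16 pairs of groups did every same-numbered pair correlate above 0.1 (range -0.33 to 0.28), so mice were treated as unpaired. Between genotypes the same-numbered mouse was the best match for 3 of 4 Npc1+/+ mice at 7 weeks and 2 of 4 at 9 weeks. The check covers the replicate number only. The litter of each mouse was not given in the sources used here and was not modelled. Alternatives were quantile normalization, median centring, other filters, fits of only the compared groups, a trend and robust prior, and leaving out mice.

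The members and gene lists were chosen with earlier results of these data known. All members are named; from other lists up to 4 genes with the largest called change; and genes most like the members' mean over the 18 groups. The contrasts from 3 to 5 and from 5 to 11 weeks were added after the values had been seen.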

Additional observations from a re-analysis of the deposited data

Results flagged for a closer look

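In 17 of 180 combinations of gene and group 1 mouse lay far from the rest of its group, by Dixon's test on the gap over the range. Chance gives about 1 in 20, or 9. At 11 weeks Npc1-/- mouse 4 was high in Mpo (6.17, the others 5.55 to 5.58) and in Elane (5.47, the others 5.22 to 5.26). Npc1-/- mouse 2 of 1 week was high in Ngp (9.77, the others up to 9.06) and S100a9 (9.57, the others up to 8.89). Mouse 4 of the Npc1 oligo with NAC was high in Ngp (6.29, the others up to 5.06). Mouse 3 of the control oligo with NAC was low in S100a9 (6.06, the others from 6.87), and Npc1-/- mouse 3 of 7 weeks in S100a8 (5.09, the others from 5.83). Mouse 3 of the Npc1 oligo was low in Ngp (4.76) and Ltf (4.98), and mouse 2 of that group high in Prtn3 (5.40). The other far mice were Elane in control-oligo mouse 2 (5.37), Prtn3 in Npc1+/+ mouse 1 of 7 weeks (5.26), Ctsg in Npc1-/- mouse 2 of 3 weeks (4.76) and in fasted mouse 2 (4.64), Camp in Npc1+/+ mouse 3 of 11 weeks (5.46), and Retnlg in Npc1+/+ mouse 3 of 3 weeks (5.14) and mouse 2 of 7 weeks (4.52).

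A tested difference between effects passed in 15 cases. The change from 1 to 3 weeks differed between genotypes by 0.96 for Ltf and 1.23 for Ngp. The change from 3 to 11 weeks differed by 1.00 for Ngp, 1.01 for S100a8 and 0.59 for Retnlg, and that from 5 to 11 weeks by 1.01 for Ngp. The effect of NAC differed between oligos by -0.95 for Prtn3 and -1.11 for Retnlg. The genotype effect at 11 weeks exceeded the oligo effect by 0.44 for Elane, 0.52 for Ltf, 0.73 for Camp, 1.28 for Ngp, 1.43 for S100a8, 0.92 for S100a9 and 0.75 for Retnlg. Of these genes, Elane, Ltf, Camp and Ngp were near background in the 12-week set.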

How the results depend on the processing

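Counts are of the 10 members (of 4 in the 12-week set) at an adjusted p under 0.05. When only the compared groups were fitted, the count went from 3 to 1 for genotype at 1 week, from 2 to 1 for the change from 3 to 11 weeks in Npc1-/- mice, and from 2 to 0 for the difference in the effect of NAC between oligos, which was 1 under a stricter filter. For the control oligo against untreated mice it went from 2 to 1 under quantile normalization and under a trend and robust prior. Without Npc1+/+ mice 1 and 2 of 3 weeks it went from 7 to 4 for the change from 3 to 11 weeks in Npc1+/+ mice and from 2 to 0 for genotype at 3 weeks. S100a9 at 1 week turned from 0.02 to -0.64 without Npc1+/+ mice 3 and 4. Leaving out 1 mouse gave counts of 4 to 7 for the change from 3 to 11 weeks in Npc1+/+ and 0 to 2 in Npc1-/- mice, 1 to 3 for their difference, 0 to 2 for genotype at 3 weeks and at 5 weeks, 1 to 5 for the change from 5 to 11 weeks in Npc1-/- mice, 1 to 3 for its difference between genotypes, 2 to 4 for the NAC difference and 1 to 2 for the control oligo. The cause of these shifts was not tested, beyond the loss of mice or groups from the fit. The fall of all 10 from 1 to 3 weeks held in both genotypes under each alternative that tested all 10; the stricter filter tested 8, without Elane and Ctsg, and all 8 fell. With the replicate number as a block, 206 of 208 values kept their call, Mpo at 9 weeks passed (adjusted p = 0.0446) and so did S100a9 in the NAC difference (0.026). Leaving out a mouse turned no member's direction among values with a call. No scaling moved the median of all genes by over 0.1. Signal near background limits Elane, Prtn3 and Ctsg after 1 week and 6 members at 12 weeks.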

Other observations

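Fetal liver genes, which fell with the granule genes after 1 week, had their highest 12-week mean in another group. The mean level of 4 of them was 6.82 with the Npc1 oligo and NAC (6.24 to 7.29 over 5 mice), 6.55 with the Npc1 oligo (6.11 to 6.94), 5.97 with the control oligo and NAC (5.82 to 6.09) and 5.82 with the control oligo (5.76 to 5.88). The mean of the 10 granule genes was 5.25, 5.20, 5.48 and 5.16 in the same groups, and was highest with the control oligo and NAC. Further genes whose group means followed those of the granule genes were Psat1 (r = 0.973 over 18 groups), Plagl1 (0.973), Incenp (0.969), Zfp618 (0.969) and Tipin (0.969).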
